A study of Mus musculus with 6 samples.

Results

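The nuclear-encoded subunits of respiratory complex III were examined in mouse platelet RNA. The 9 genes, Uqcrc1, Uqcrc2, Uqcrfs1, Cyc1, Uqcrh, Uqcrb, Uqcrq, Uqcr10 and Uqcr11, were picked by symbol from the 14975 genes of an expression table. All 9 were listed, and all 9 had a mean of at least 1 FPKM (fragments per kilobase of exon, scaled to the size of the library, which is a level per length), as did 4412 genes in all. The set was picked with its control and pre-AML values already known. Differences of its members between the groups are therefore described here without a test.

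The series held 6 platelet libraries of C57BL/6 background mice from peripheral blood, 3 whose genotype is labelled WT and 3 labelled AML. By the study's methods, the WT group came from irradiated recipients of normal bone marrow (called control here). The AML group came from sub-lethally irradiated recipients of GFP-positive leukemic cells made with a retroviral MLL-AF9 fusion gene, taken 1 week after transplantation, before leukemia could be seen in the blood (called pre-AML here). Recipients were female and 8 to 12 weeks old. Platelets were depleted of CD45-positive and Ter119-positive cells, so the model rests on transplanted cells in an irradiated host and on what depletion left behind. The labels speak of 2 replicates and of pools of 3 to 4 mice, whereas the methods speak of 3 independent mice. The spread between libraries may therefore be partly technical.

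Complex III, also called the cytochrome bc1 complex, sits in the inner mitochondrial membrane. It takes electrons from ubiquinol, passes them to cytochrome c, and moves protons across the membrane in the so-called Q cycle. Electrons run through the Rieske iron-sulfur protein (Uqcrfs1) and cytochrome c1 (Cyc1), and through cytochrome b, which is encoded in mitochondrial DNA and was not analysed here. The large core proteins Uqcrc1 and Uqcrc2 face the matrix. The small subunits Uqcrh, Uqcrb, Uqcrq, Uqcr10 and Uqcr11 have no redox group, and Uqcrh is the acidic hinge protein at the cytochrome c1 side. Platelets have no nucleus but carry mitochondria and RNA from the megakaryocyte that shed them.

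The library pre-AML 3 stood apart from the other 5. Recovered reads on listed genes were 11935847 to 13876076 in the controls, and 13537509, 14905048 and 17778000 in pre-AML 1, 2 and 3. The deposited values rest on a library size for each library. It was 0.983 to 1.01 times the recovered reads in all but pre-AML 3, where it was 1.31 times as large. The summed FPKM of 10 platelet markers was 89916 to 113954 in the controls, 90975 and 92338 in pre-AML 1 and 2, and 61391 in pre-AML 3. Of the 7 B cell markers listed, 7 were higher in pre-AML 3 than in every control, with sums of 1.46 to 1.86 in the controls and 0.881, 19.5 and 227 in pre-AML 1, 2 and 3. Pax5, which defines B cells, was at 0 in all controls. The T and NK cell sum was 19.1 to 28.6 in the controls and 35.6, 34.0 and 43.7 in the pre-AML libraries, where Cd3g, Ncr1 and Cd2 were at 0 in all controls and 8 of 9 markers were higher in pre-AML 3. The sum of 10 monocyte and macrophage markers was 4664 to 5316 in the controls and 4939, 4872 and 5216 in the pre-AML libraries, which lay within the control range. Without Fcer1g, which platelets also use as a part of their collagen receptor, it was 2385 to 2615 in the controls and 2489, 2341 and 3349 in the pre-AML libraries. These 9 markers were all higher in pre-AML 3 than in every control, and Cd14 and Ly86 were at 0 in all controls. The erythroid sum was 2351 to 2653 in the controls and 2991, 2884 and 2378 in the pre-AML libraries. The neutrophil sum was 3.16 to 3.66 in the controls and 4.998, 2.18 and 1.46 in the pre-AML libraries, with Retnlg, Elane, Mpo and Ly6g at 0 in all controls. The part of other cells' RNA in the complex III values was not tested, and fewer cells of a type and less RNA per cell cannot be told apart in such libraries.

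RefSeq promoter sequences (GRCm38.p6) were at hand for 5 of the 9 genes, Uqcrh, Uqcrc1, Uqcr11, Uqcr10 and Uqcrfs1. The 250 bases before the RefSeq start are given for 3 of them. Uqcr11 and Uqcrfs1 are shown because their pre-AML libraries all lay above the controls, and Uqcrh as an abundant subunit whose groups overlapped. The windows are chr10:80406822-80407071 for Uqcr11, chr13:30545317-30545566 for Uqcrfs1 and chr4:116075071-116075320 for Uqcrh, all on the minus strand and written 5′ to 3′. Capitals mark an ETS motif (CCGGAAG or its reverse complement) in Uqcr11 and Uqcrh and the cyclic AMP response element (TGACGTCA) in Uqcrfs1.
Uqcr11: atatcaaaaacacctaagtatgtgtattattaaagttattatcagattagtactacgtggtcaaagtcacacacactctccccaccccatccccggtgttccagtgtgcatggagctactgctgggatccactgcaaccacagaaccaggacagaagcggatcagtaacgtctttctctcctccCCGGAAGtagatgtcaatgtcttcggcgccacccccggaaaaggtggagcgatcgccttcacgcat
Uqcrfs1: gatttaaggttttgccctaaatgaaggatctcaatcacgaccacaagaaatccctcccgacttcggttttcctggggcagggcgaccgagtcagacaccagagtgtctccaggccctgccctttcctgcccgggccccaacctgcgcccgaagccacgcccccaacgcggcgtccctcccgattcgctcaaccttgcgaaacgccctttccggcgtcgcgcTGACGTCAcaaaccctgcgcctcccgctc
Uqcrh: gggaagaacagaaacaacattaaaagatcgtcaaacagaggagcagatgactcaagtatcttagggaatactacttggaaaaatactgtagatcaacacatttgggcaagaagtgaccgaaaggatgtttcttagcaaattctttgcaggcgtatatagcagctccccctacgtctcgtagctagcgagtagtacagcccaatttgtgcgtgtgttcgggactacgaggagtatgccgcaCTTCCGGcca

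The ETS motif began 66 bases before the start of Uqcr11 and 10 bases before that of Uqcrh, and was in none of the other 3 windows. On either strand it was in 8.86% of 32851 promoter windows that run from 250 bases before to 50 bases after a start. The element of Uqcrfs1 began 29 bases before its RefSeq start and was in 1.79% of all windows. The gene as annotated in GENCODE (chr13:30540308-30545362, minus strand) begins further upstream, so the element lies within it. This element was added to the search after its letters had been seen. The longer NRF1 motif (0.971% of windows) was found in Uqcrc1 alone, after its start, and its shorter form (GCATGCGC; 2.71%), which lies within the longer motif, in Uqcrc1 and Uqcr11. CCAAT (37.4%) was in Uqcrh and Uqcr10, while GGGCGG (35.7%) and the YY1 motif AAGATGGCG (1.40%) were in none of the 5. The 2 genes shown whose pre-AML libraries lay above the controls, Uqcr11 and Uqcrfs1, shared none of these motifs. A match of letters is a description of the window and not evidence that a factor binds there.

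The levels of the 9 transcripts differed widely in control platelets, although their proteins are joined in fixed numbers in the complex. Uqcr11 had the highest mean (282 ± 4.80 FPKM, SD, n = 3). Uqcrh followed with 156 ± 13.97, Uqcrq with 70.7 ± 10.2 and Uqcr10 with 45.5 ± 5.25 FPKM. Uqcrb had 10.2 ± 3.10, Uqcrc2 9.88 ± 2.40, Uqcrc1 4.31 ± 0.866, Cyc1 2.92 ± 0.520 and Uqcrfs1 1.98 ± 0.448 FPKM. The 4 most abundant members are small subunits without a redox group. The proteins that carry the iron-sulfur cluster and heme c1 came last.

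Per kilobase of all annotated exons, as in the deposited FPKM, the widest step between neighbours was from Uqcr10 to Uqcrb, a ratio of control means of 4.47. Per kilobase of the longest coding transcript it was 3.67, and the step from Uqcrh to Uqcrq was wider (4.14). Other steps also depended on the scale. Per kilobase of the longest coding transcript, Uqcr11 to Uqcrh was 1.15 (1.81 by FPKM) and Uqcrc2 to Uqcrc1 1.23 (2.29 by FPKM). Steps that widened included Uqcrc1 to Cyc1 (2.60) and Cyc1 to Uqcrfs1 (2.10). Ranges were compared by the deposited FPKM only, where neighbours were told apart by their control ranges in all but 2 cases. Uqcrb and Uqcrc2 differed by a ratio of 1.03, their ranges overlapped, and Uqcrb was higher in only 2 of 6 libraries. Uqcrc1 and Cyc1 overlapped in the controls (ratio 1.47), but Uqcrc1 was higher in 6 of 6 libraries. Cyc1 exceeded Uqcrfs1 in 4 of 6 libraries. Uqcr11, at percentile 98.9 of the control level among the 14975 listed genes, and Uqcrfs1, at percentile 78.5, were the ends of the range. The 4 abundant small subunits held 94.4% to 96.6% of the summed FPKM of complex III in every library. Reads on the 9 genes were 0.0540% to 0.0731% of each library, 6471 to 12997 reads.

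**Figure D1:**
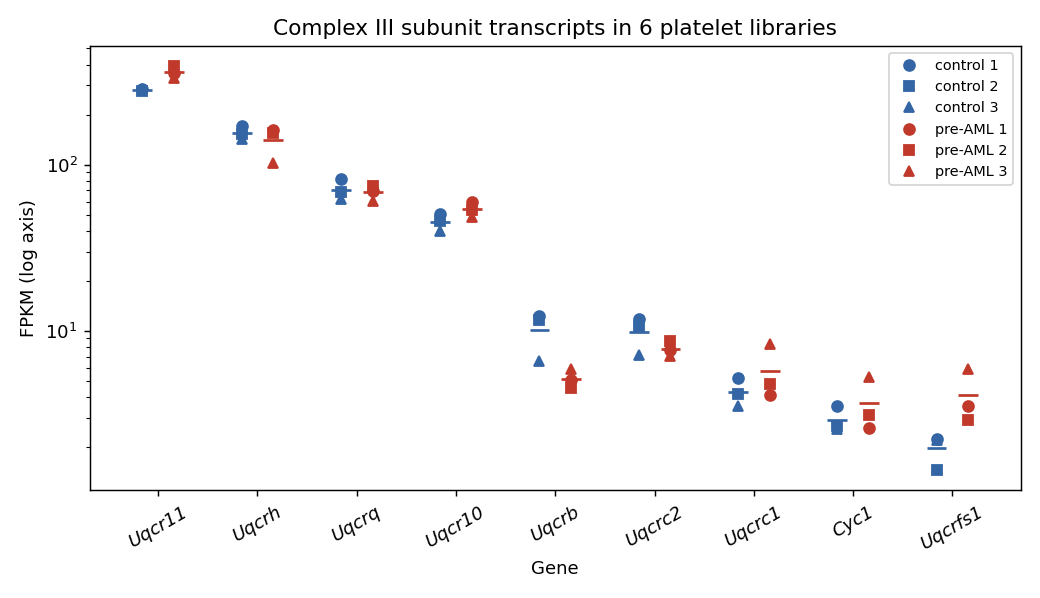
Level of the 9 complex III subunits in each library, in FPKM on a log axis, with 1 point per library (blue for control, red for pre-AML) and short lines for the group means. Uqcr11, Uqcrh, Uqcrq and Uqcr10 lie far above the other 5 genes in all 6 libraries, and the ratio of control means from Uqcr10 to Uqcrb is 4.47.

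Among the small subunits, Uqcr11 was higher in the pre-AML libraries. This gene (chr10:80402997-80406830, minus strand, GRCm38) encodes the smallest of the accessory proteins. Its level was 285, 277 and 285 FPKM in controls 1, 2 and 3, and 358, 391.6 and 333 FPKM in pre-AML 1, 2 and 3. All pre-AML libraries lay above all controls, and no other member varied as little among the controls (coefficient of variation 1.70%, against 8.96% to 30.4% for the other 8). The pre-AML mean was 361 ± 29.2 FPKM, 1.28 times the control mean, and the log2 fold change on the log2(FPKM + 1) scale was 0.35 (SE 0.13). These values rested on 2147 to 4987 reads per library. GENCODE holds 2 processed pseudogenes close to it (95.3% and 98.8% identity over 171 bases), neither of them in the table, and reads that fit both could have been counted on either.

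Uqcrb had the lowest fold change of the 9. It lies at chr13:66900617-66905378 on the minus strand and encodes a small subunit of the matrix side that contacts cytochrome b. Levels were 12.3, 11.7 and 6.62 FPKM in the controls and 5.06, 4.54 and 5.87 FPKM in the pre-AML libraries. All pre-AML libraries lay below all controls, but control 3 was close to them. The counting interval of control 3 (5.15 to 8.38 FPKM, 95% exact Poisson) overlapped those of pre-AML 1 (3.85 to 6.53 FPKM), pre-AML 2 (3.46 to 5.84 FPKM) and pre-AML 3 (4.87 to 7.02 FPKM). Means were 10.2 ± 3.10 and 5.16 ± 0.671 FPKM, a ratio of 0.506 and a log2 fold change of -0.82 (SE 0.22). Counts were low, with 126, 144 and 69 reads in the controls and 59, 60 and 120 in the pre-AML libraries. When each library was scaled to its recovered reads, the separation was lost, with 7.71 FPKM in pre-AML 3 against 6.58 in control 3. Uqcrb has 4 processed pseudogenes of 93.2% to 98.2% identity over 333 to 336 bases, none of them in the table. It also shares 465 bases with Gm10767 on the other strand, which had 0 to 12 reads per library. The library kit is not stated to keep strand.

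The other small subunits overlapped between the groups. Uqcrh (chr4:116066965-116075071, minus strand) had 171, 154 and 143 FPKM in the controls and 162, 155 and 102 FPKM in the pre-AML libraries, so that pre-AML 3 alone lay below the controls. Its log2 fold change was -0.18 (SE 0.19). Uqcrq (chr11:53427922-53430831, minus strand), a subunit of the membrane part, had 81.8, 68.3 and 61.9 FPKM in the controls and 69.8, 74.6 and 60.7 FPKM in the pre-AML libraries, a log2 fold change of -0.043 (SE 0.16). Uqcr10 (chr11:4701973-4704342, minus strand), which sits near cytochrome c1, had 50.5, 46.0 and 40.0 FPKM in the controls and 59.6, 53.6 and 48.7 FPKM in the pre-AML libraries, a log2 fold change of 0.24 (SE 0.15). Its lowest pre-AML value lay just under its highest control value, and with libraries scaled to recovered reads the pre-AML libraries all lay above. Uqcrh, Uqcrq and Uqcr10 also have processed pseudogenes of at least 90% identity that are not in the table. Uqcr10 further resembles 4930481A15Rik (96.8% over 185 bases), which was listed at 7.74 to 10.6 FPKM.

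The proteins of the electron path differed from each other. Uqcrfs1 (chr13:30540308-30545362, minus strand), the Rieske protein that takes electrons from ubiquinol, had 2.25, 1.46 and 2.22 FPKM in the controls and 3.53, 2.92 and 5.88 FPKM in the pre-AML libraries. All pre-AML libraries lay above all controls. The means were 1.98 ± 0.448 and 4.11 ± 1.56 FPKM, a ratio of 2.08 and a log2 fold change of 0.75 (SE 0.23). The level rested on 36, 28 and 36 reads in the controls and on 64, 60 and 187 in the pre-AML libraries. The counting intervals of control 1 (1.58 to 3.12 FPKM) and control 3 (1.55 to 3.07 FPKM) overlapped those of pre-AML 1 (2.72 to 4.51 FPKM) and pre-AML 2 (2.23 to 3.76 FPKM). Without pre-AML 3 the log2 fold change was 0.51. Cyc1 (chr15:76343523-76346260, plus strand), which hands electrons to cytochrome c, had 3.52, 2.67 and 2.57 FPKM in the controls and 2.62, 3.14 and 5.27 FPKM in the pre-AML libraries. Its groups overlapped, with pre-AML 3 as the highest of all 6 values. The log2 fold change of 0.22 (SE 0.22) became -0.012 without pre-AML 3.

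The 2 core proteins overlapped between the groups, while the ratio between them did not. Uqcrc1 (chr9:108936633-108949623, plus strand) had 5.23, 4.18 and 3.52 FPKM in the controls and 4.13, 4.79 and 8.37 FPKM in the pre-AML libraries. The pre-AML mean was 1.34 times the control mean, with a log2 fold change of 0.31 (SE 0.24) that was 0.050 without pre-AML 3. Uqcrc2 (chr7:120635176-120659524, plus strand) had 11.8, 10.7 and 7.18 FPKM in the controls and 7.72, 8.65 and 7.02 FPKM in the pre-AML libraries, a log2 fold change of -0.28 (SE 0.19), and its groups overlapped. That value was -0.48 without control 3 and -0.16 without control 1. The ratio of Uqcrc1 to Uqcrc2 was 0.444, 0.392 and 0.490 in the controls, 0.535 and 0.554 in pre-AML 1 and 2, and 1.19 in pre-AML 3. All pre-AML ratios lay above the controls, those of pre-AML 1 and 2 only just. This pair was chosen after its values were seen. No overlap was also seen for 18.7% of all pairs of tested genes listed above 0 in every library. The proteins pair in the matrix part of the complex. No close copy of Uqcrc1, Cyc1 or Uqcrfs1 was found, while Uqcrc2 overlaps Pdzd9 on the other strand over 794 bases, a gene with 1 to 13 reads per library.

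**Figure D2:**
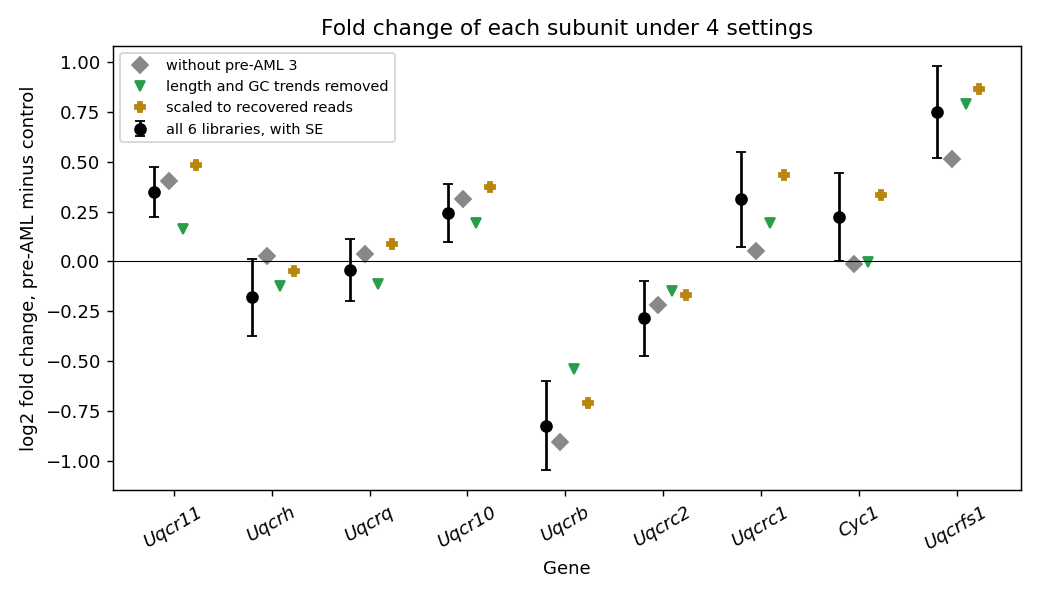
Log2 fold change of each complex III subunit, pre-AML against control, on the log2(FPKM + 1) scale. Black circles with SE bars are the fit of all 6 libraries, in which Uqcrfs1 (0.75) and Uqcrb (-0.82) are the extremes, and other symbols are the fits without pre-AML 3 (grey), with length and GC trends removed (green) and with libraries scaled to recovered reads (ochre).

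Across the 9 genes the direction was mixed. In 2 of them, Uqcr11 and Uqcrfs1, all pre-AML libraries lay above all controls (6.14% of the 4412 tested genes did), and in Uqcrb all lay below (12.8% did). No overlap in either direction was seen in 3 of 9 members and in 18.9% of tested genes. With libraries scaled to recovered reads, 3 members lay above (Uqcr11, Uqcr10 and Uqcrfs1) and 0 below, and 10.9% of genes lay above and 9.77% below. The median log2 fold change of the 9 was 0.22, and -0.055 over all tested genes. Since the members were picked on this contrast, nothing is read from these counts. Over all 4412 tested genes, limma-trend with Benjamini-Hochberg adjustment called 1 (0.0227%), the protease gene Gzma of cytotoxic cells, chosen for mention after its values were seen. Without adjustment, 113 genes (2.56%) had a p below 0.05 with a higher level in pre-AML and 288 (6.53%) with a lower one.

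The scaling of pre-AML 3 moved all genes together. Scaling to recovered reads raised the median log2 fold change of all tested genes by 0.11, from -0.055 (4412 genes) to 0.053 (4518 genes). The filter of 1 FPKM was applied again after scaling, so genes that entered are part of this shift. Relative to the median of each setting, Uqcrb stood at -0.77 with the deposited scaling and -0.76 with scaling to reads. Uqcr11 stood at 0.41 and 0.43, and Uqcrfs1 at 0.80 and 0.81. Cyc1 and Uqcr11 are the most GC-rich of the set and Uqcrb is the most GC-poor (59.9%, 59.2% and 41.3% GC over their annotated transcripts). With trends in gene length and GC content removed, the log2 fold changes of Uqcr11 and Uqcrb were smaller in size, 0.16 and -0.54. That of Cyc1 was -0.0043, while that of Uqcrfs1 was 0.79.

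Ratios between members of the same library do not depend on how the libraries are scaled. The ratio of Uqcr11 to Uqcrb was 23.3, 23.7 and 43.1 in the controls and 70.7, 86.3 and 56.8 in the pre-AML libraries. The ratio of Uqcrfs1 to Uqcrb was 0.184, 0.125 and 0.335 in the controls and 0.697, 0.643 and 1.002 in the pre-AML libraries. Neither ratio overlapped between the groups, and control 3 came nearest to the pre-AML libraries in both. Uqcr11 and Uqcrfs1 already lay above and Uqcrb below the controls in every pre-AML library, so both outcomes were fixed in advance. The ratio of Uqcr11 to Uqcrh also separated the groups, with 1.67, 1.80 and 1.99 in the controls and 2.21, 2.52 and 3.25 in the pre-AML libraries. Uqcr11 made up 45.8%, 48.1% and 51.6% of the summed complex III FPKM in the controls and 53.2%, 56.0% and 57.7% in the pre-AML libraries. Uqcrb made up 1.97%, 2.03% and 1.20% in the controls and 0.753%, 0.650% and 1.02% in the pre-AML libraries. The summed FPKM itself overlapped, at 624, 575 and 552 in the controls and 672, 699 and 578 in the pre-AML libraries.

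Of all 36 ratios between 2 members, 18 did not overlap between the groups. Among the 9463425 pairs of tested genes listed above 0 in every library, 18.7% did not. The 36 ratios share their genes and are not independent. The members were picked on this contrast, and Uqcr11, Uqcrfs1 and Uqcrb already separated singly, so nothing is read from the counts of ratios. Of the 8 ratios with Uqcrb, 7 did not overlap, of those with Uqcrfs1 5 did not, and of the 21 with neither 7 did not. Set against the mean log2 level of the other 8 members, Uqcrb was lower in every pre-AML library than in every control (difference -0.99) and Uqcrfs1 was higher (0.77). The other 7 overlapped on this scale, Uqcr11 among them (0.33).

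**Figure D3:**
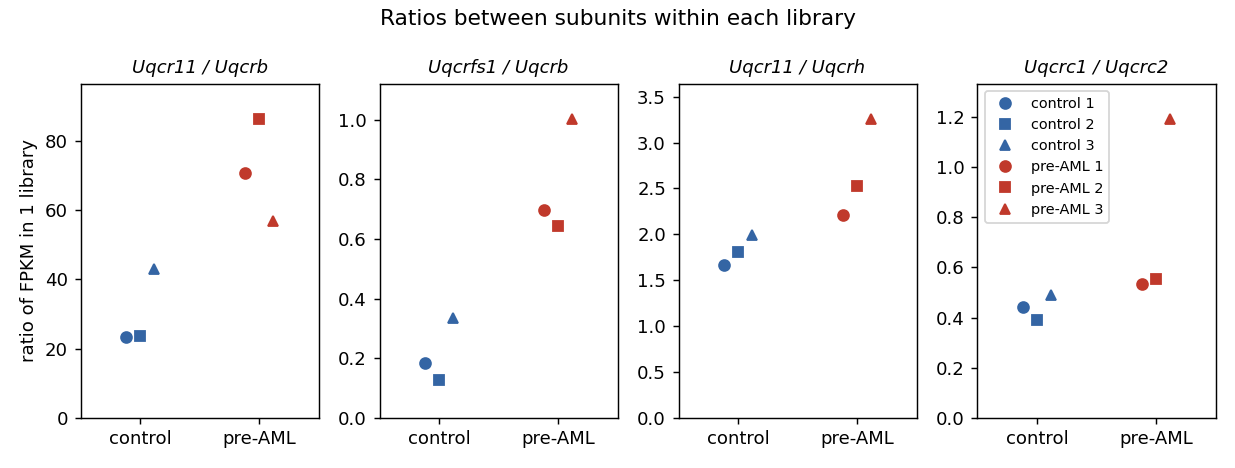
FPKM ratios of 4 pairs of complex III members within each library, on linear axes from 0, with 1 point per library. The ratio of Uqcr11 to Uqcrb is 23.3 to 43.1 in the controls and 56.8 to 86.3 in the pre-AML libraries, and that of Uqcrfs1 to Uqcrb is 0.125 to 0.335 against 0.643 to 1.002. The separation of these ratios with Uqcrb follows from that of the single genes. Uqcrh, Uqcrc1 and Uqcrc2, which are in the other pairs, overlapped between the groups as single genes.

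**Figure D4:**
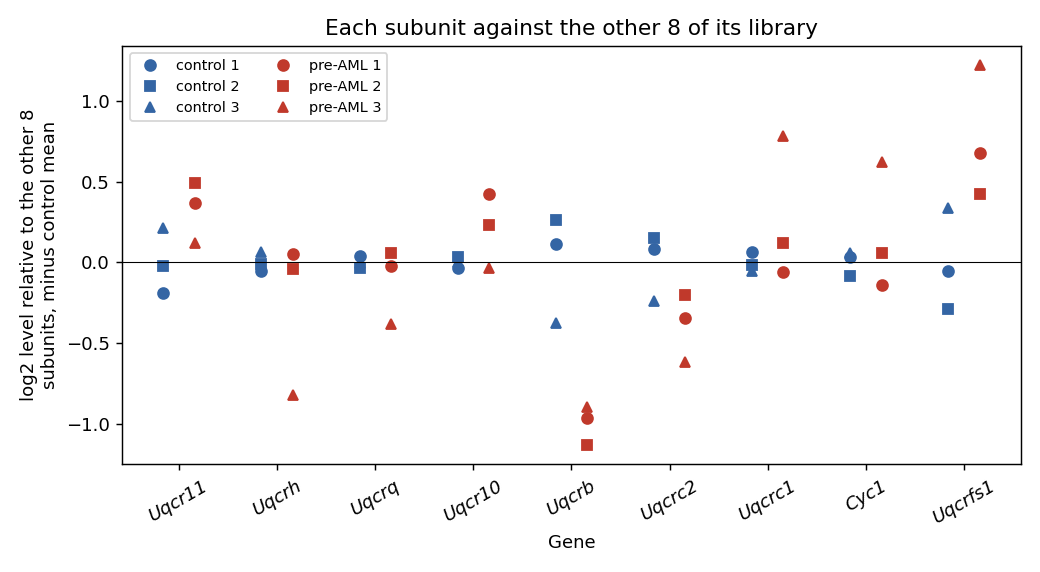
Log2 level of each complex III subunit relative to the mean of the other 8 in the same library, shown as the difference from its control mean, with 1 point per library. Uqcrb and Uqcrfs1 are the members whose control and pre-AML points do not overlap, Uqcrb lower and Uqcrfs1 higher in the pre-AML libraries.

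The members' fold changes ranged from -0.82 to 0.75, with an SD of 0.454 among the 9, against 0.364 over all tested genes. For the tested subunits of complex I the range was -0.65 to 0.60 (31 genes, SD 0.255), for complex IV -0.57 to 0.25 (11 genes, SD 0.238) and for ATP synthase -0.36 to 0.60 (14 genes, SD 0.278). Their medians were -0.028, -0.24 and -0.077, beside 0.22 for complex III. Without pre-AML 3 the medians of complexes I and IV and ATP synthase were -0.040, -0.078 and 0.0035, and that of complex III was 0.039. With length and GC trends removed they were -0.090, -0.14 and -0.10, and that of complex III was -0.0043. With a minimum of 5 FPKM they were 0.020, -0.24 and -0.20, and that of complex III was -0.043. These SDs cover lists of different size and level, and their difference was not tested.

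Genes around complex III did not pass the adjusted threshold in any list, and of all 4412 tested genes only 1 did (0.0227%). Of 17 assembly genes, which insert cytochrome b, the Rieske protein or heme or process the precursors, 14 were in the table and 7 were tested. At an unadjusted p under 0.05, 0 of the 7 were higher and 1 was lower. Of all tested genes, 2.56% were higher and 6.53% lower at this threshold. The median log2 fold change of the 7 was -0.056. The 1 was Uqcc1, an assembly factor for cytochrome b, with 3.46 ± 0.256 FPKM in the controls and 2.57 ± 0.307 in the pre-AML libraries (log2 fold change -0.32, limma-trend adjusted p = 0.522). Its partner Uqcc2 had 1.14 ± 0.214 and 2.09 ± 0.945 FPKM (0.49, limma-trend adjusted p = 0.522), with 3.17 FPKM in pre-AML 3. Bcs1l, which inserts the Rieske protein, and Lyrm7 and Ttc19, which act around the same step, were below the filter with means under 1 FPKM in both groups.

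For the substrates of the complex, the data were thinner. Of 13 ubiquinone synthesis genes in the table only Coq10b, a ubiquinone-binding protein, passed the filter (log2 fold change -0.20, limma-trend adjusted p = 0.669). Of 11 genes that feed electrons to ubiquinone, 7 were tested, with a median of 0.012. At an unadjusted p under 0.05 there were 0 of them, beside 2.56% of all tested genes higher and 6.53% lower. Sdhc of complex II had means of 2.30 and 2.76 FPKM (log2 fold change 0.19, limma-trend adjusted p = 0.629) and Gpd2, the mitochondrial glycerol phosphate dehydrogenase, 5.04 and 4.35 FPKM (-0.17, limma-trend adjusted p = 0.606). Cytochrome c (Cycs), the electron acceptor, was below the filter with 0.614 ± 0.1002 FPKM in the controls and 0.243, 0.156 and 1.21 FPKM in pre-AML 1, 2 and 3. Cox7a2l had 144 and 129 FPKM (-0.18, limma-trend adjusted p = 0.675), and Cox7a2 of complex IV 371 and 316 FPKM (-0.24, limma-trend adjusted p = 0.594). In the controls the carrier that complex III feeds was thus listed at a lower FPKM than each of the 9 subunits. These FPKM are divided by annotated exon length, 3404 bases for Cycs and 1363 for Uqcrfs1, the lowest of the 9. Near-identical copies of Cycs were not searched for.

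The genes with the most similar profile were sought by the root mean square difference of log2(FPKM + 1) profiles, each centred on its own mean, over 6 libraries and 4411 genes. For Uqcrc1 the nearest gene was Cyc1 (0.072), and for Cyc1 Uqcrc1 ranked 5, behind Ncaph2 (0.055) and 9530068E07Rik (0.059) among others. Both share the high value in pre-AML 3. For the other 7 members the nearest fellow member ranked between 78 and 670. Uqcr11 was nearest to Arrb2 (0.034) and Gpr137 (0.054), Uqcrh to Cd59b (0.037) and Ttc27 (0.040), Uqcrq to Ndufv3 (0.048) and Rgp1 (0.053), and Uqcr10 to Vkorc1 (0.062) and Tusc2 (0.068). Uqcrb was nearest to Gm38560 (0.091) and Lifr (0.16), Uqcrc2 to Rps12 (0.066), and Uqcrfs1 to Syngr2 (0.12) and Usp5 (0.13). Uqcrb and Uqcrfs1 had the least close neighbours of the 9, and their own profiles also varied the most (root mean square 0.49 and 0.47, against 0.15 to 0.34 for the others). These likenesses describe 6 libraries, of which pre-AML 3 stands apart.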

How the data were processed

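Platelet poly(A) RNA of 6 libraries, 3 per group, was amplified with SMART-Seq2 and fragmented with Nextera XT. Per the labels and methods, the authors mapped reads to mm10 with STAR and used DESeq2. The counting program and annotation are not given in the sources used here. The deposited table holds FPKM values per gene and library, and 0 columns of per-sample values were left unmapped. Groups were taken from the genotype label and named after the study's methods. The 9 members and all gene lists were chosen with earlier results of these data known.

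FPKM values were multiplied by the union exon length (GENCODE M21, GRCm38; 14902 of 14975 genes) to recover reads. Within a tolerance of 0.02, 81.8% of values were whole, including all 54 member values, and 12212 genes were whole in all 6 libraries. A level of 3 reads on a gene of 2 kilobases corresponds to between 0.0643 (pre-AML 3) and 0.128 FPKM (control 1). Poisson intervals cover counting error only.

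Genes whose mean over the libraries reached 1 FPKM were fitted with limma-trend (limma 3.58.1, R 4.3.3) on log2(FPKM + 1), two-sided and with group as the only term. The p-values were adjusted by Benjamini-Hochberg and set against 0.05. The pseudocount understates changes of low genes. Alternatives were scaling to recovered reads, quantile normalization, no filter, a minimum of 5 FPKM, a pseudocount of 0.1, a replicate block, loess trends (span 0.3) with length and GC content removed, limma-voom on recovered reads, and leaving out each library. Named were all members, the 2 tested genes of each partner list with the smallest p, and the 2 genes most like each member, of which 1 is not reported here. Bcs1l, Lyrm7, Ttc19, Cycs, Gzma and the ratios of members were chosen after their values were seen. Copies were searched with blastn 2.17.0 (at least 90% identity over at least 100 aligned bases). The scripts were tested on simulated data. Other steps used Python 3.11.15 with pandas 2.3.3, numpy 2.4.6, scipy 1.17.1 and matplotlib 3.10.9.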

Additional observations from a re-analysis of the deposited data

How the results depend on the processing

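Of the 124 values of single members under alternative settings, 3 moved by more than the spread between libraries: Uqcr11 with libraries scaled to recovered reads (0.48) and with length and GC trends removed (0.16), and Uqcrfs1 with limma-voom (1.10). Uqcr11, Uqcr10, Uqcrc1 and Uqcrfs1 were above 0 and Uqcrb and Uqcrc2 below 0 in every setting in which they were fitted, with ranges of 0.16 to 0.48 for Uqcr11, 0.15 to 0.37 for Uqcr10, 0.050 to 0.49 for Uqcrc1, 0.51 to 1.10 for Uqcrfs1, -1.08 to -0.54 for Uqcrb and -0.48 to -0.15 for Uqcrc2. Uqcrq (-0.13 to 0.087) changed sign in 4 settings, Cyc1 (-0.012 to 0.39) in 2 and Uqcrh (-0.30 to 0.028) in 1. The median of the members, 0.22, was -0.043 with a minimum of 5 FPKM, which left 7 members, and -0.0043 with length and GC trends removed. Leaving out each library gave 0.039 to 0.32, the lowest without pre-AML 3. The count of genes past the adjusted threshold was 1 of 4412. It was 0 of 4518 with scaling to recovered reads (254 higher and 256 lower at an unadjusted p under 0.05) and 0 of 14975 without a filter (497 and 373). It was 0 of 2159 with a minimum of 5 FPKM (49 and 217) and 0 of 4395 with limma-voom (94 and 333). Leaving out each library gave a count of 0 to 2. This count was 0 without control 1, control 3 or pre-AML 1, and 2 without pre-AML 3. The cause was not tested. Of the unadjusted calls, 28.2% were higher in pre-AML with the deposited scaling, 49.8% with scaling to recovered reads, 39.9% with quantile normalization and 57.1% without a filter. With the replicate number as a block, 1 gene passed and the median of the members was 0.22. Deviations of libraries with the same number correlated at -0.043, -0.12 and -0.17, which gave no sign of pairing by number. With 3 libraries per group these correlations cannot exclude a shared preparation. Ranked by reads not divided by length, or by the pre-AML libraries, 4 of the 9 members kept their place in the order of levels, and 9 did per kilobase of the longest coding transcript, an alternative added after seeing the data, as were the settings for the other complexes. Uqcrfs1 (28 to 187 reads per library), Uqcrb (59 to 144) and Cyc1 (66 to 265) rest on the fewest reads.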
